A study of Mus musculus with 9 samples.

Results

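The genes described here are 33 genes of sterol and fatty acid synthesis, of 20898 genes tested on the arrays. They comprise 17 sterol synthesis enzymes, 10 fatty acid genes and 6 regulators, and for each gene the probe was chosen by its brightness, as the one with the highest mean log2 Cy5 signal. The genes were listed by name with earlier results of these arrays known, including the decrease of Pnpla3, so their values and counts are descriptions and no test over the list is given. RNA came from L3/L4 dorsal root ganglia (DRG) of adult mice, 4 uninjured samples and 5 injured samples taken 3 days after transection of the sciatic nerve, a peripheral nerve that carries the axons of DRG sensory neurons. Every sample was from Cre-negative (cre.neg) mice with the jun.wt genotype, and the sources used here give neither the strain nor the number of animals in a sample. A DRG holds neurons, satellite glia, Schwann cells, macrophages and connective tissue together, so that fewer cells of a type and less RNA per cell cannot be told apart.

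Cholesterol is built from acetyl-CoA through the mevalonate pathway, in which HMG-CoA is converted to isoprenoid units, farnesyl pyrophosphate and squalene, and the ring-closed product lanosterol is then trimmed to cholesterol. Fatty acids are built from the same acetyl-CoA by acetyl-CoA carboxylase and fatty acid synthase, and are then elongated and desaturated. Both arms are classical targets of the sterol regulatory element binding proteins, SREBP1 and SREBP2, which SCAP escorts out of the endoplasmic reticulum when sterols are low and INSIG proteins retain there when sterols are high. In peripheral nerve this synthesis is best known from Schwann cells, which make large amounts of membrane lipid for myelin.

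The promoters of Pnpla3, Hsd17b7, Ebp and Hmgcs1 are shown first. Pnpla3, Hsd17b7 and Ebp differed most between injured and uninjured DRG among the listed genes, and Hmgcs1 was the 1 listed gene whose promoter held the sterol regulatory element searched for. The sequences are the 250 bases before the start of each gene, 5′ to 3′ on the strand of the gene, from RefSeq on GRCm38.p6. Capitals mark the CCAAT box, read on either strand (CCAAT or ATTGG), and the sterol regulatory element TCACNCCAC. They lie at chr15:84167566-84167815 on the plus strand for Pnpla3, chr1:169969206-169969455 on the minus strand for Hsd17b7, chrX:8193513-8193762 on the minus strand for Ebp and chr13:119690101-119690350 on the plus strand for Hmgcs1.
Pnpla3: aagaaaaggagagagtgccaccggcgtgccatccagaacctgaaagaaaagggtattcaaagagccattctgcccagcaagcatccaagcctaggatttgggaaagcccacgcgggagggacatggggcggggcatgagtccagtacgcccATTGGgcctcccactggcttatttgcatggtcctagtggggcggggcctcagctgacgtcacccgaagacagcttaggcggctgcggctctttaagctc
Hsd17b7: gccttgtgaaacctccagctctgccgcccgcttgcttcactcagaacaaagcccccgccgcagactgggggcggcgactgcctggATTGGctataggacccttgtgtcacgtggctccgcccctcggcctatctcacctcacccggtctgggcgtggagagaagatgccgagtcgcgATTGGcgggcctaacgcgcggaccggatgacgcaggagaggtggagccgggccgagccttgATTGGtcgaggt
Ebp: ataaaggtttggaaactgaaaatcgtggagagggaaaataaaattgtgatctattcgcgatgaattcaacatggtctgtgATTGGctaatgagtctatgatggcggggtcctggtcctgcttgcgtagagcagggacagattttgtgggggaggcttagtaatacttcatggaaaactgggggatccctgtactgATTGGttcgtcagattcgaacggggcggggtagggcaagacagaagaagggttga
Hmgcs1: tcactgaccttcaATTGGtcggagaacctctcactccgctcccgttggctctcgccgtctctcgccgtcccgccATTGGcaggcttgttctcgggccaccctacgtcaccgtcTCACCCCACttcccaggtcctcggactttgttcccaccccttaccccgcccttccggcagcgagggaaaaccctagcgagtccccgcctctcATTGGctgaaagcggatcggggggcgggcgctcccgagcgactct
Of the listed genes, 26 of 33 had a RefSeq promoter, searched over 250 bases before to 50 bases after the start. Fdps, Fdft1, Sqle, Scd1, Scd2, Fads1 and Stard4 had none. A CCAAT box was present in 22 of the 26 (84.6%), against 41.1% of all 27025 genes with a RefSeq promoter. Those 27025 genes were taken whether or not they were measured on the arrays, while the 26 were all detected. It was found in 14 of 14 sterol enzyme promoters, 4 of 7 fatty acid gene promoters and 4 of 5 regulator promoters. It was found in 13 of 15 promoters of listed genes that did not pass the test after injury, in 4 of 5 of those that were higher and in 5 of 6 of those that were lower. TCACNCCAC, on either strand, was present in 1 of the 26, against 1.44% of all genes with a promoter. The E-box CACGTG was present in 5 of the 26 (19.2%, against 8.09% of all genes with a promoter). The GC box GGGCGG, on either strand, was present in 22 of the 26 (84.6%, against 38.2%). These matches are descriptions of letters in a window, not of binding.

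Gene expression was measured as the log2 ratio of DRG RNA (Cy5) over a universal mouse reference RNA (Cy3) on 9 two-colour arrays with no dye swap, and a log2 fold change is the difference of the mean log2 ratio, injured minus uninjured. The median Cy5 signal was between 156 and 238, and between 71.0% and 78.9% of spots were well above background. The probes of all 33 genes were well above background in Cy5 on all 9 arrays. Those of Scd2, Hmgcs1 and Fasn were very bright, with a mean log2 Cy5 signal of 16.7, 16.1 and 16.1. Saturation of spots was not examined. The neuron list was well represented, its 14 genes having a median log2 ratio of 5.97 in uninjured DRG. The arrays lie on 3 slides, which hold 3 injured arrays with 1 uninjured array, 2 injured arrays, and 3 uninjured arrays, so slide and injury overlap in large part. Muscle genes were raised on injured array 2 (by 1.66 on average on the log2 scale, against the uninjured mean) and injured array 4 (3.25), and myelin genes were lowest on uninjured array 2 (−0.44) and injured array 5 (−0.32). Array numbers are names only, and values are given in their order. Nothing in the labels says that samples came from separate mice, so p-values measure the spread between these samples.

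In uninjured DRG most of the listed genes stood above the reference RNA. The log2 ratio was above 0 for 27 of the 33 genes (81.8%) and above 1 for 16 (48.5%), against 55.6% and 20.2% of all genes tested. All 17 sterol enzymes were above 0, as were 8 of 10 fatty acid genes and 2 of 6 regulators. The median log2 ratio of the 33 genes was 0.99, against 0.073 over all genes. A log2 ratio compares a transcript with the same transcript in the reference and does not order the genes by level.

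After injury, the 33 genes did not move as a block. In the limma fit over all genes, 5 of the 33 were higher and 6 were lower in injured DRG (adjusted p under 0.05), and the remaining 22 did not pass. These are 15.2% and 18.2% of the 33, beside 11.4% higher and 14.0% lower (25.4% in either direction) among all 20898 genes, so the counts are near the background. The median log2 fold change of the 33 genes was −0.0045, beside 0.0013 over all genes. In all 11 genes past the threshold the injured and uninjured arrays did not overlap, a pattern found for 10.9% of all genes upward and 13.1% downward.

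**Figure D1:**
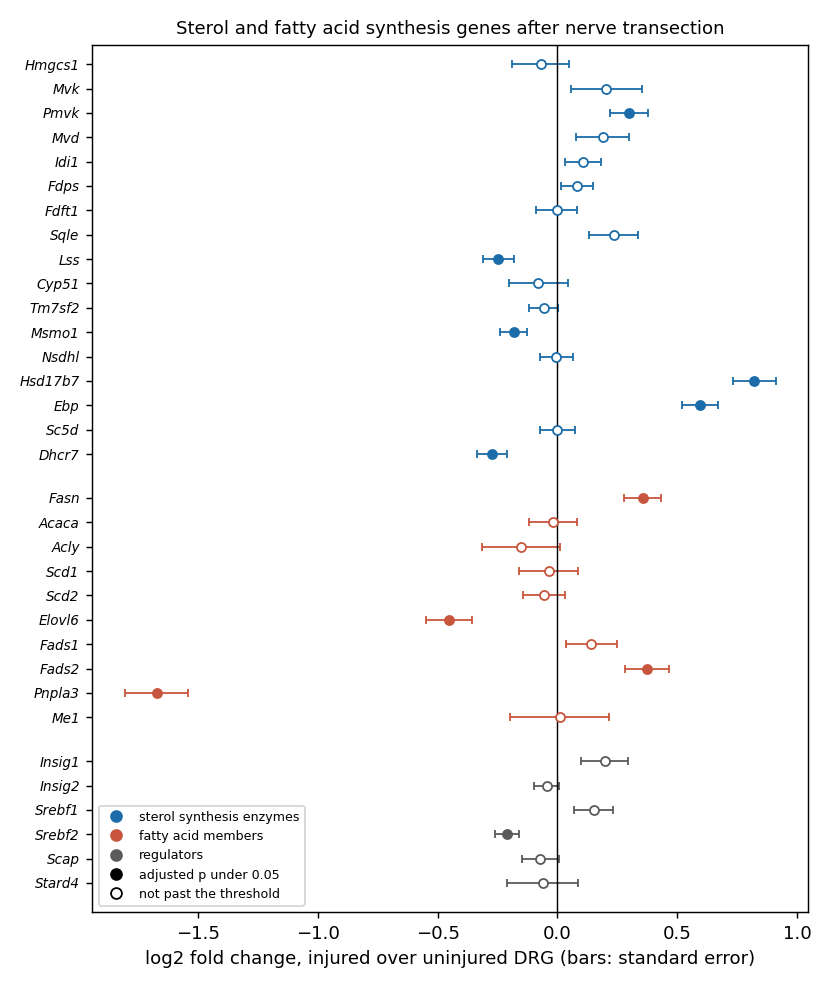
Log2 fold change of the 33 genes, injured over uninjured DRG (x axis, bars are standard errors from limma, 4 and 5 arrays). Genes are grouped as sterol enzymes, fatty acid genes and regulators. Sterol enzymes are ordered by pathway step, and the other groups are in the order in which they were listed. Filled points passed an adjusted p of 0.05 and open points did not. Pnpla3 lies at −1.67, far to the left of the other genes, and Hsd17b7 (0.82) and Ebp (0.59) lie farthest to the right.

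Of the 17 sterol synthesis enzymes, 3 were higher (Hsd17b7, Ebp and Pmvk), 3 were lower (Dhcr7, Lss and Msmo1) and 11 did not pass. Hsd17b7 and Ebp, which rose, act between Msmo1 and Dhcr7, which fell. The median log2 fold change of the 17 was −0.0011 and the range −0.27 to 0.82.

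Hsd17b7 encodes the 3-keto-sterol reductase that works with Nsdhl in removing the methyl groups of lanosterol. Its log2 ratio was 2.63, 2.65, 2.72 and 2.84 on the uninjured arrays and 3.71, 3.48, 3.35, 3.40 and 3.71 on the injured arrays. The lowest injured array exceeded the highest uninjured one. The rise was 0.82 on the log2 scale (SE 0.090, limma adjusted p = 0.000115), or 1.77-fold, and a second probe of the gene gave 0.74. It ranked 421 among all rises.

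Ebp encodes the sterol isomerase that shifts the double bond of the sterol ring after those methyl groups have been removed. On uninjured arrays the log2 ratio was 0.55, 0.39, 0.52 and 0.57, and on injured arrays it was 1.04, 1.02, 0.97, 1.23 and 1.24. The groups were apart by more than the range within either of them. Ebp rose by 0.59 on the log2 scale (SE 0.074, limma adjusted p = 0.000256), or 1.51-fold.

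Pmvk, phosphomevalonate kinase of the early pathway, had the smallest rise of the 3. Uninjured arrays had a log2 ratio of 1.59, 1.56, 1.57 and 1.80, and injured arrays 1.86, 1.84, 1.84, 1.99 and 2.11. Uninjured array 4 came close to the lowest injured arrays. This rise was 0.30 on the log2 scale (SE 0.079, limma adjusted p = 0.0186), with 0.31 from a second probe. Leaving out uninjured array 1, 2 or 3 ended the call, with an adjusted p between 0.0507 and 0.0576.

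Dhcr7, which reduces 7-dehydrocholesterol to cholesterol in the last step of 1 branch of the pathway, was lower. Its log2 ratio was 1.83, 1.76, 1.82 and 1.83 on uninjured arrays and 1.52, 1.43, 1.53, 1.51 and 1.69 on injured arrays. Injured array 5 was the highest of its group and still below the lowest uninjured array. Dhcr7 fell by 0.27 on the log2 scale (SE 0.062, limma adjusted p = 0.00891), and a second probe gave −0.29.

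Lss, lanosterol synthase, closes the ring of squalene epoxide. Its log2 ratio was 0.27, 0.32, 0.41 and 0.36 on uninjured arrays and 0.02, 0.20, 0.21, 0.01 and 0.03 on injured arrays. The log2 fold change of the brightest probe was −0.25 (SE 0.065, limma adjusted p = 0.0191). The other probes of Lss gave 0.038 and −0.014, so that this decrease rests on 1 of 3 probes, and with the probes averaged it was −0.074 (adjusted p = 0.667). Without uninjured array 3 its adjusted p was 0.0635.

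Msmo1, the methylsterol monooxygenase that the array files name Sc4mol, had a log2 fold change of −0.18 (SE 0.058, limma adjusted p = 0.0398), with means of 1.19 ± 0.093 in uninjured (SD, n = 4) and 1.01 ± 0.021 in injured DRG (SD, n = 5). This call was near the threshold, and leaving out any single array other than uninjured array 2 ended it, with an adjusted p between 0.0527 and 0.115.

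Hmgcs1 and Sqle, classical SREBP2 targets, did not pass the test. Hmgcs1, HMG-CoA synthase, had a log2 ratio of 2.46, 2.26, 2.56 and 2.70 on uninjured arrays and 2.38, 2.46, 2.75, 2.36 and 2.18 on injured arrays. The groups overlapped over most of their range, and the log2 fold change was −0.070 (SE 0.12, limma adjusted p = 0.719). The other probes of Hmgcs1, both dimmer, gave −0.019 and −0.37, and with the probes averaged it was −0.15 (adjusted p = 0.27). The array design places the Hmgcs1 probe on Un_random of build mm7, where contigs not assigned to a chromosome are kept. Sqle, squalene epoxidase, had a log2 ratio of 1.30, 1.04, 1.21 and 1.06 on uninjured arrays and 1.57, 1.39, 1.47, 1.44 and 1.07 on injured arrays. All injured arrays but array 5 were above the uninjured arrays, and the log2 fold change was 0.23 (SE 0.10, limma adjusted p = 0.122). The other sterol enzymes that did not pass had log2 fold changes of 0.20 (Mvk), 0.19 (Mvd), 0.11 (Idi1), 0.081 (Fdps), −0.0034 (Fdft1), −0.079 (Cyp51), −0.056 (Tm7sf2), −0.0045 (Nsdhl) and −0.0011 (Sc5d). The Idi1 probes are placed on chromosome 2 of mm7 by the array files, while RefSeq has Idi1 on chromosome 13 of GRCm38.p6, so the gene these probes report on is uncertain.

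As a mean over the 17 sterol enzymes, the deviation from the uninjured mean was between 0.060 and 0.13 on injured arrays and between −0.048 and 0.035 on uninjured arrays. As a median over the same 17 enzymes, it was between −0.036 and 0.15 on injured arrays and between −0.072 and 0.045 on uninjured arrays. The groups overlapped in the median and not in the mean. The mean includes Hsd17b7 and Ebp, with log2 fold changes of 0.82 and 0.59, and no mean without them was taken. Over the 10 fatty acid genes the mean was between −0.32 and 0.012 on injured and between −0.070 and 0.054 on uninjured arrays, with overlap. That mean includes Pnpla3 at −1.67.

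**Figure D2:**
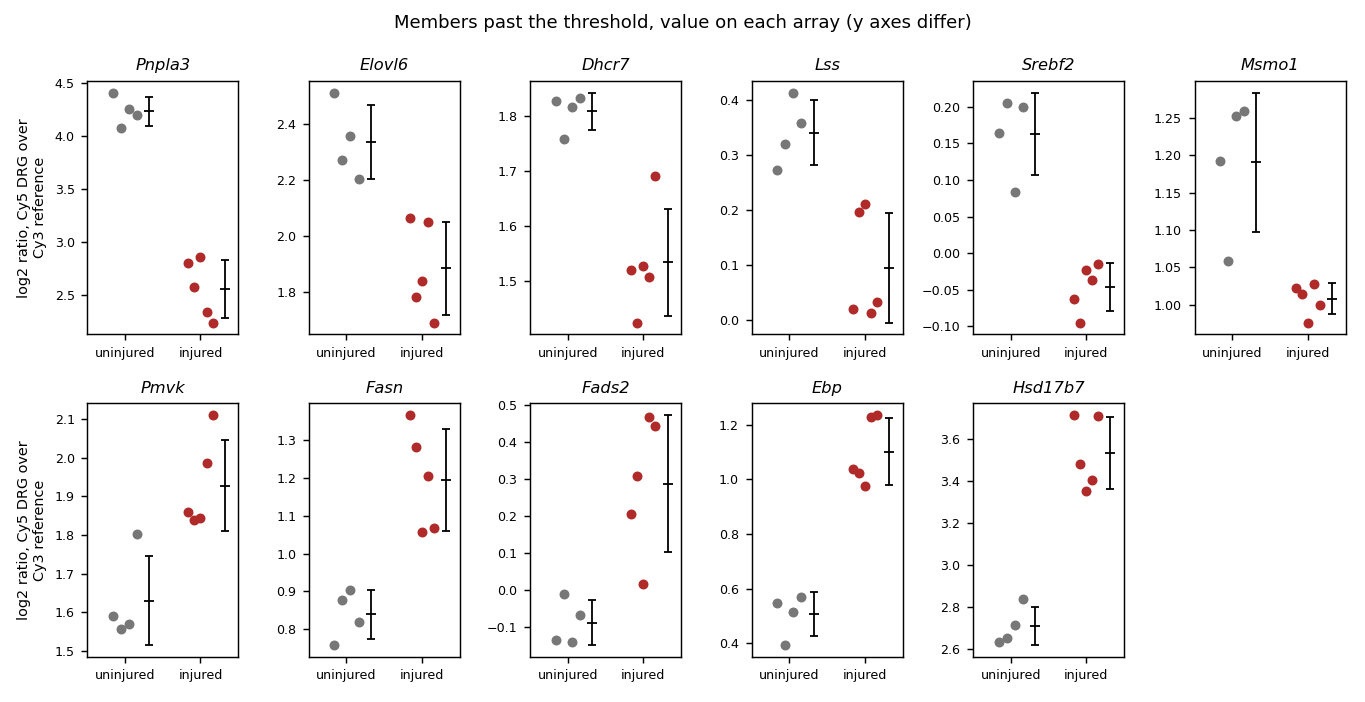
Log2 ratio of Cy5 DRG over Cy3 reference RNA (y axis, a separate scale for each gene) on each array for the 11 genes past the threshold, uninjured in grey (4 arrays) and injured in red (5 arrays), with mean and SD beside the points. Groups do not overlap in any panel, and the gap is widest for Pnpla3, where uninjured arrays lie between 4.08 and 4.41 and injured arrays between 2.24 and 2.86.

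Of the 10 fatty acid genes, 2 were higher (Fads2 and Fasn), 2 were lower (Pnpla3 and Elovl6) and 6 did not pass. Their median log2 fold change was −0.027 and their range −1.67 to 0.38, wider than that of the sterol enzymes through Pnpla3 alone.

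Pnpla3 encodes adiponutrin, a lipid droplet protein that acts on triglycerides and retinyl esters and is a known target of SREBP1 in liver. Its log2 ratio was 4.41, 4.08, 4.25 and 4.19 on uninjured arrays and 2.80, 2.57, 2.86, 2.34 and 2.24 on injured arrays. The highest injured array was more than 1 log2 unit below the lowest uninjured array. The uninjured mean was 4.23 ± 0.14 (SD, n = 4) and the injured mean 2.56 ± 0.27 (SD, n = 5), so the log2 fold change was −1.67 (SE 0.13), or 3.19-fold lower. This was the most negative log2 fold change of all 20898 genes tested, and 1 probe represents the gene. Because its decrease was known when the genes were listed, no p is printed for it, and counting it among the genes past the threshold, here and under other settings, is a description only.

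Elovl6, which lengthens saturated and monounsaturated fatty acids, had a log2 ratio of 2.51, 2.27, 2.36 and 2.20 on uninjured arrays and 2.06, 1.78, 1.84, 2.05 and 1.69 on injured arrays. The highest injured arrays lay close to the lowest uninjured array. The log2 fold change was −0.45 (SE 0.096, limma adjusted p = 0.00617), or 1.37-fold lower.

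Fasn, fatty acid synthase, rose. Arrays of uninjured DRG gave 0.76, 0.88, 0.90 and 0.82 as log2 ratios, and those of injured DRG 1.37, 1.28, 1.06, 1.21 and 1.07, all above the uninjured ones. Fasn rose by 0.36 on the log2 scale (SE 0.076, limma adjusted p = 0.00628), or 1.28-fold, and a second probe gave 0.37. With the Cy5 channel taken alone it was 0.17 (adjusted p = 0.135).

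Fads2, the delta-6 desaturase of polyunsaturated fatty acid synthesis, had a log2 ratio of −0.13, −0.01, −0.14 and −0.07 on uninjured arrays and 0.21, 0.31, 0.02, 0.47 and 0.44 on injured arrays. Injured array 3 lay close to the uninjured arrays and the rest well above them. The log2 fold change was 0.38 (SE 0.092, limma adjusted p = 0.0131).

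The stearoyl-CoA desaturases, which make monounsaturated fatty acids, overlapped between groups. Scd1 had a log2 ratio of 2.56, 2.38, 2.64 and 2.73 on uninjured arrays and 2.69, 2.69, 2.68, 2.53 and 2.13 on injured arrays, with a log2 fold change of −0.036 (SE 0.12, limma adjusted p = 0.871). Scd2 had a log2 ratio of 1.30, 0.99, 1.24 and 1.22 on uninjured arrays and 1.13, 1.13, 1.26, 1.23 and 0.91 on injured arrays, with a log2 fold change of −0.055 (SE 0.088, limma adjusted p = 0.70). Both had their lowest uninjured value on array 2 and their lowest injured value on array 5. These genes are paralogs with 1 probe each, and cross-hybridisation between them was not tested. Acaca, the acetyl-CoA carboxylase that commits carbon to this arm, had a log2 fold change of −0.018, Acly, which supplies acetyl-CoA from citrate, −0.15, Fads1, the delta-5 desaturase, 0.14, and Me1, malic enzyme, 0.0091. A second Me1 probe gave −0.32.

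Of the 6 regulators, 1 was lower and none was higher at the threshold. Srebf2, which encodes SREBP2, the main activator of the sterol arm, had a log2 ratio of 0.17, 0.21, 0.08 and 0.20 on uninjured arrays and −0.06, −0.10, −0.02, −0.04 and −0.02 on injured arrays. The difference was small but larger than the spread within groups, with a log2 fold change of −0.21 (SE 0.052, limma adjusted p = 0.0136). The other 3 probes of Srebf2 gave between −0.10 and −0.07, and with the probes averaged the fold change was −0.12 (adjusted p = 0.183).

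Srebf1, which encodes SREBP1, had a log2 ratio of −0.25, −0.26, −0.27 and 0.04 on uninjured arrays and −0.01, 0.01, −0.14, −0.10 and 0.07 on injured arrays. Uninjured array 4 stood among the injured arrays, and the log2 fold change was 0.15 (SE 0.080, limma adjusted p = 0.201). Without that array it was 0.23 and passed (adjusted p = 0.0396). Insig1, an INSIG retention protein that is itself induced by SREBPs, had a log2 ratio of −0.20, −0.42, −0.08 and 0.04 on uninjured arrays and −0.07, 0.21, 0.11, −0.01 and −0.07 on injured arrays, with a log2 fold change of 0.20 (SE 0.098, limma adjusted p = 0.172) and 0.022 from a second probe. Insig2 had a log2 fold change of −0.044, Scap, the SREBP escort, −0.070, and Stard4, a cytosolic sterol carrier, −0.061.

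Within the slide that holds both groups, 3 injured arrays could be compared with 1 uninjured array. The direction of the 11 genes past the threshold could not change there, because their injured and uninjured arrays do not overlap. Only the sizes of the differences are informative. The within-slide difference, which is also the estimate with slide as a fixed block, was −1.87 for Pnpla3, −0.67 for Elovl6, −0.28 for Dhcr7, −0.22 for Srebf2, −0.19 for Lss, −0.18 for Msmo1, 0.35 for Pmvk, 0.45 for Fads2, 0.48 for Fasn, 0.55 for Ebp and 1.00 for Hsd17b7. With the slide in the limma fit, Hsd17b7 stayed past the threshold (adjusted p = 0.00458), and adjusted p was between 0.0506 and 0.426 for the 9 genes other than Hsd17b7 and Pnpla3, the latter being given by its value. Over all genes that fit called 1179, against 5306 without the slide. Slide and injury cannot be told apart beyond this 1 uninjured array.

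The related lists give the neighbouring steps, and their counts are to be read beside the 11.4% of all genes that were higher and the 14.0% that were lower. Among 10 other genes of sterol and isoprenoid synthesis none passed the limma test, with a range of −0.16 to 0.16 and a median of 0.027, and 0 of 10 stands beside 25.4% of all genes. At an unadjusted p under 0.05 the count was 1 of 10, beside 7667 of all 20898 genes.

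Of 17 genes of sterol uptake, storage and efflux, 3 were higher and 1 was lower, with a median of 0.13. Abca1, the transporter that loads cholesterol onto apolipoproteins, rose by 1.66 (SE 0.062, limma adjusted p = 5.29e-08), from a log2 ratio of 1.45 to 3.11. Abcg1, which exports sterols to high-density lipoprotein, fell by 0.76 (SE 0.091, limma adjusted p = 0.000199), opposite to Abca1. With the slide as a fixed block Abca1 was at 1.60 (adjusted p = 0.00042) and Abcg1 at −0.98 (adjusted p = 0.00835).

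Of 28 other fatty acid genes that passed the filter, of 30 listed, 4 were higher and 2 lower, with a median of 0.0029. Elovl3 and Scd4 were too dim to be tested. Fads3, a desaturase paralog of Fads1 and Fads2, rose by 1.21 (SE 0.061, limma adjusted p = 5.45e-07), from a log2 ratio of −0.65 to 0.56. With the slide as a fixed block it was at 1.19 (adjusted p = 0.00102). Acsl3, an acyl-CoA synthetase, fell by 0.33 (SE 0.10, limma adjusted p = 0.0376), a call that 10 of 23 alternatives ended. Of 14 genes of fatty acid oxidation, 2 were higher and 3 lower, with a median of −0.058. The ends were Cpt1b, the muscle form of carnitine palmitoyltransferase, at 0.52 (adjusted p = 0.0432), and Acadm, medium-chain acyl-CoA dehydrogenase, at −0.37 (adjusted p = 0.0172). Of 23 alternatives, 13 ended the call of Cpt1b and 6 that of Acadm. With the slide as a fixed block Cpt1b was at 0.15 (adjusted p = 0.806) and Acadm at −0.41 (adjusted p = 0.239). Without injured arrays 2 and 4, those with raised muscle genes, Cpt1b was at 0.39 (adjusted p = 0.187) and Acadm at −0.39 (adjusted p = 0.063).

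Triglyceride and lipid droplet genes, the list nearest to Pnpla3 in function, had 4 of 12 higher and 3 of 12 lower, with a median of 0.26, beside 11.4% higher and 14.0% lower among all genes. Plin2, which coats lipid droplets, rose by 1.48 (SE 0.088, limma adjusted p = 1.6e-06). Dgat1, which makes triglyceride and was named after its values were seen, rose by 0.73 (SE 0.13, limma adjusted p = 0.00197). G0s2, an inhibitor of the droplet lipase ATGL, fell by 0.52 (SE 0.090, limma adjusted p = 0.00196). With the slide as a fixed block Plin2 was at 1.58 (adjusted p = 0.00125), Dgat1 at 0.88 (adjusted p = 0.0542) and G0s2 at −0.50 (adjusted p = 0.129). On all 5 injured arrays the list mean (0.085 to 0.35) was above its values on uninjured arrays (−0.030 to 0.038). The list median was between 0.038 and 0.40 on injured arrays and between −0.037 and 0.050 on uninjured arrays. The groups overlapped in the median and not in the mean. The mean includes Plin2 and Dgat1, and no mean without them was taken.

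**Figure D3:**
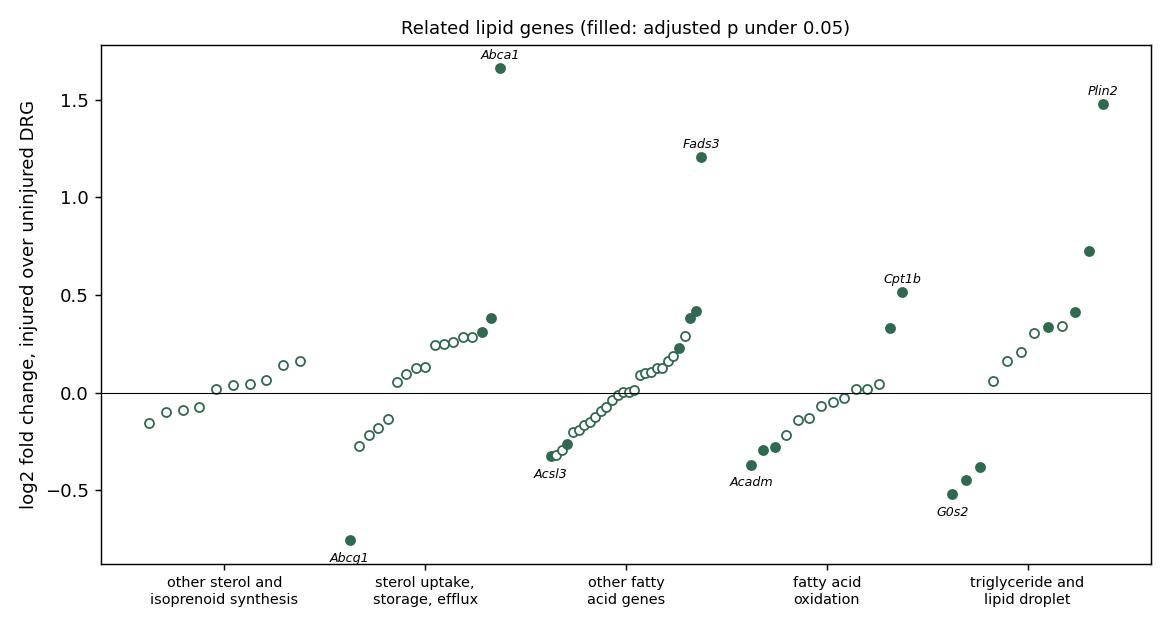
Log2 fold change, injured over uninjured DRG (y axis), of each gene tested in 5 related lipid lists (x axis, genes ordered by fold change within a list, filled where the adjusted p was under 0.05). The largest rise and fall past the threshold in each list are named. Abca1 (1.66), Plin2 (1.48) and Fads3 (1.21) lie above all sterol synthesis enzymes, and no gene of the other sterol synthesis list is filled.

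Markers of the cell types that a DRG sample can hold were measured on the same arrays. Their counts are to be read beside the 11.4% of all genes that were higher and the 14.0% that were lower. Of 12 myelin genes none passed the limma test in either direction (median 0.13), and the mean over the list was between −0.44 and 0.36 on uninjured and between −0.32 and 0.51 on injured arrays. Both groups had 1 array with low myelin genes, and 10 of 12 myelin genes (83.3%) had their lowest uninjured value on array 2 and their lowest injured value on array 5. The same was seen for 8 of the 33 lipid synthesis genes (24.2%), namely Acly, Cyp51, Hmgcs1, Idi1, Pnpla3, Scd1, Scd2 and Sqle, and for 13.4% of all genes. Without those 2 arrays 11 of the 33 genes passed, beside 5243 of all 20898 genes. Pmvk was then at 0.23 (adjusted p = 0.0588) and no longer passed, and Sqle was at 0.28 (adjusted p = 0.0285) and did.

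Pnpla3, Fasn, Scd1 and Elovl6 are also well known from fat tissue, so adipocyte genes were measured too. Of 10 tested (Lep and Aqp7 were not well above background on enough arrays), Pparg was higher (0.31, limma adjusted p = 0.00442) and Cidea lower (−0.93, adjusted p = 0.000117). Cidea was the 1 gene of the 10 with a log2 fold change below 0, and the list median was 0.25. The list mean was between −0.79 and 0.55 on uninjured and between −0.17 and 0.90 on injured arrays, with overlap. Its part in the results for the lipid genes was not tested.

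Of 14 macrophage genes 3 were higher, led by Aif1 (0.90, limma adjusted p = 0.00763), and the list mean was between 0.054 and 1.01 on injured and between −0.44 and 0.35 on uninjured arrays. The macrophage median was 0.62, with 1 gene below 0. Of 14 neuron genes 3 were lower, led by Scn9a (−0.54, limma adjusted p = 0.00489), a sodium channel of nociceptors. The neuron median was −0.073, with 10 of the 14 genes below 0. Of 8 satellite glia genes 2 were higher, led by Glul (0.78, limma adjusted p = 0.000132), glutamine synthetase. The satellite glia median was 0.057, with 4 of the 8 genes below 0. Of 5 genes of dividing cells (median 0.22) 1 was higher, Birc5 (0.36, limma adjusted p = 0.0239), and Aurkb was too dim. Of 7 fibroblast, 9 muscle and 4 red blood cell genes none passed, with medians of 0.25, 1.03 and 0.71 and with Mb too dim, and at an unadjusted p under 0.05 the counts were 0, 1 and 3. The count for the 12 myelin genes was 2, and over all 20898 genes it was 7667. With the slide as a fixed block Cidea (−0.94, adjusted p = 0.0314) and Glul (0.71, adjusted p = 0.0398) passed, and Pparg, Aif1, Scn9a and Birc5 did not (adjusted p between 0.115 and 0.293). The part of these cells in the values of the lipid synthesis genes was not tested.

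**Figure D4:**
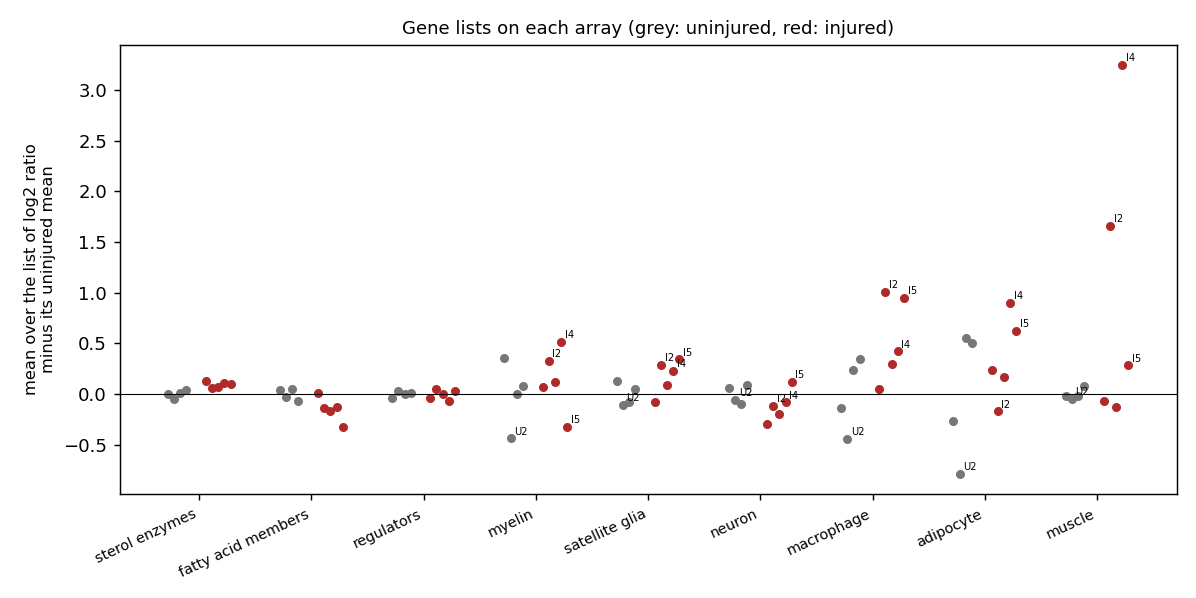
Mean over each list of the log2 ratio minus its uninjured mean (y axis), per array, for the 3 sets of lipid synthesis genes and 6 cell type lists (x axis), uninjured in grey (4 arrays) and injured in red (5 arrays). The lipid synthesis sets stay between −0.32 and 0.13 on all arrays, while muscle genes reach 3.25 on injured array 4 and myelin genes are lowest on uninjured array 2 and injured array 5 (labelled U2 and I5).

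Without injured arrays 2 and 4, those with raised muscle genes, 4 of the 33 genes passed the threshold. They were Pnpla3 at −1.60, Elovl6 at −0.47 (adjusted p = 0.0244), Hsd17b7 at 0.88 (adjusted p = 0.0012) and Ebp at 0.58 (adjusted p = 0.00359). The mean of the muscle genes on the remaining injured arrays was between −0.13 and 0.28. Dhcr7, Lss, Msmo1, Pmvk, Fasn, Fads2 and Srebf2 did not pass (adjusted p between 0.0535 and 0.13), in a fit with 3 injured arrays that called 3010 genes. Their direction could not change, because their injured and uninjured arrays do not overlap.

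The Cy3 channel carried the same reference RNA on every array and gives the background of the comparison. There, 0 of the 33 genes and 33 of the 20898 genes passed the limma test between the arrays of injured and uninjured samples. At an unadjusted p under 0.05 the counts were 2 and 2009. The differences of the 33 genes in Cy3 lay between −0.11 and 0.12 on the log2 scale, and that of Pnpla3 was −0.11.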

How the data were processed

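L3/L4 DRG RNA of 4 uninjured and 5 injured samples was measured on 9 two-colour Agilent arrays. The deposited scanner intensities are, per the file headers (Agilent Feature Extraction 10.5.1.1, array design on build mm7), mean spot signal and median local background. Agilent's log10 ratio, per the file headers, and the authors' processed log2 ratios, for which the labels name limma, were used as alternatives only. The authors' columns have medians between 0.020 and 0.024, and the values computed here had slopes of 1.00 to 1.01 against them, so that scale and direction agree.

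The software was R 4.3.3 and limma 3.58.1. Background was corrected by normexp (offset 50), estimated without spots whose signal or local background was not uniform (2 to 26 per array), which were left out, because on injured array 2 they pulled the fit to a mean of −358 against −15.5. Ratios were loess-normalized within arrays and repeated spots averaged. Probes had to be well above background in Cy5 on 4 or more arrays, which left 31186, and each gene was then taken from its brightest probe. Groups were compared with lmFit and eBayes, with Benjamini-Hochberg adjustment over 20898 genes, of which 16494 have a symbol in RefSeq. The procedure was tested on simulated data, drawn as independent normal values with each gene's spread and no slide effect. In them 200 of 20863 genes were changed. Of true log2 changes of 0.25, 0.5 and 1, the procedure recovered 10%, 64% and 92%, and 3.65% of its calls were false. On the arrays themselves 5306 of 20898 genes were called, so these shares need not hold for this comparison. Small changes can be missed in genes that did not pass. Promoters were searched with Python 3.11.15, and figures were drawn with matplotlib 3.10.9.

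The members and lists were chosen with earlier results of these data known. Values per array are printed for up to 5 genes of each set that passed without overlap of the groups, and for Pnpla3, Scd1, Scd2, Hmgcs1, Sqle, Insig1, Srebf1 and Srebf2. Of other lists the largest rise and fall past the threshold are named. Some genes of those lists are not reported here. The labels and methods give 3 days after transection, and the results text of the study another time. The number of arrays limits the precision.

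Alternatives were other background and dye corrections, the authors' values, the Cy5 channel alone, other filters and probe rules, slide as a block, and each array left out. Leaving out the arrays with raised muscle genes, or with low myelin genes, was added after seeing the data.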

Additional observations from a re-analysis of the deposited data

Results flagged for a closer look

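Each gene's values within a group of 4 or 5 arrays were compared with Dixon's test, which chance alone passes in about 1 in 20 groups. Of 66 groups, 5 held an array far from the others, beside 3.3 given by chance. Uninjured array 4 was high for Pmvk, with a log2 ratio of 1.80 against 1.56 to 1.59 on the other uninjured arrays, and for Srebf1, with 0.042 against −0.27 to −0.25. Uninjured array 2 was low for Idi1, with 1.20 against 1.43 to 1.48, and high for Acaca, with 0.78 against 0.35 to 0.42. Injured array 5 was low for Cyp51, with −0.26 against 0.27 to 0.43 on the other injured arrays.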

How the results depend on the processing

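Each of the 33 genes was recomputed under 23 alternatives. Pnpla3, given as a description, was between −1.87 and −1.48. Hsd17b7 (0.76 to 1.00) kept direction and call in all 23, and Ebp (0.46 to 0.63) lost its call with slide as a fixed block (adjusted p = 0.0646). Calls were lost under 12 alternatives for Msmo1, 9 for Pmvk, 5 each for Lss, Srebf2 and Fasn, 3 for Fads2, and 2 each for Elovl6 and Dhcr7, and gained under 3 for Sqle and 1 for Srebf1. None of these genes changed direction. For the genes whose groups do not overlap, that was fixed in advance wherever arrays were left out or slide was a fixed block. Of the 15 genes named outside the 33, none changed direction, and Abca1, Abcg1, Fads3, Plin2, Cidea and Glul kept their calls in all 23.

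Median centring called 2659 genes (all-gene median −0.049), of them 3 sterol enzymes, 1 fatty acid gene and 0 regulators, with a sterol median of −0.092. Slide as a fixed block called 1179 genes, of them 1 sterol enzyme, 1 fatty acid gene and 0 regulators. As a random block (correlation −0.21) it called 7409. Agilent's own ratio and the average of probes called 0 regulators. Without injured arrays 2 and 4 the counts were 3010 genes, 2 sterol enzymes, 2 fatty acid genes and 0 regulators. Leaving out each array in turn called 4024 to 5445 genes, 3 to 6 sterol enzymes (3 without uninjured array 3), 4 to 4 fatty acid genes and 1 to 2 regulators (2 without uninjured array 4, which adds Srebf1). The sterol median was then −0.0052 to 0.042, the fatty acid median −0.088 to 0.018, and 0 of the 33 genes passed in Cy3. The causes were not tested.

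Some genes not past the threshold changed sign, and their values given here lie between −0.18 and 0.20. Me1 was −0.0046 with the background fitted on all spots, and Nsdhl 0.0063 with none corrected. Scd2 was 0.051 with Agilent's ratio. Median centring gave Fdps −0.031 and Me1 −0.081, and the authors' values gave Nsdhl 0.023 and Scd2 0.0036. The Cy5 channel alone gave Nsdhl 0.0094 and Sc5d 0.031, and averaged probes gave Me1 −0.15. Slide as a fixed block gave Acaca 0.20, Me1 −0.12, Scap 0.081 and Stard4 0.036, and as a random block Fdft1 0.025, Nsdhl 0.0020 and Sc5d 0.0075. Without injured arrays 2 and 4, Fdft1 was 0.021, Sc5d 0.0032 and Acaca 0.0073. Without uninjured array 2 and injured array 5, Fdft1 was 0.039, Cyp51 0.0023, Nsdhl 0.061, Acaca 0.038, Scd1 0.0016, Me1 −0.048 and Stard4 0.0998. With each array left out in turn, Me1 was −0.13 to 0.18, Fdft1 −0.062 to 0.048, Acaca −0.066 to 0.078, Sc5d −0.076 to 0.034, Stard4 −0.18 to 0.071, Nsdhl −0.047 to 0.032, Scd1 −0.10 to 0.068, Cyp51 −0.14 to 0.037 and Scd2 −0.12 to 0.0013.

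No paired analysis was possible because no replicate numbers or animals are named in the labels. The precision is limited by the number of arrays.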
